A study of Mus musculus with 11 samples.

Results

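The mitochondrial ribosomal protein genes are the nuclear genes for the proteins of the ribosome that works inside mitochondria. All rows whose gene symbol begins with Mrpl or Mrps followed by a digit were taken, pseudogenes left out, which gave 77 of 24319 gene symbols, 48 named Mrpl and 29 named Mrps. RNA was sequenced from 11 libraries of C57BL/6J mice. B-ALL libraries came from leukemic lymph node cells of 3 Ebf1+/- Pax5+/- mice, numbered 686, 713 and 760, with 2 libraries per mouse. The 3 dHet proB libraries came from Ebf1+/- Pax5+/- Rag2-/- proB cells, grown from c-Kit positive fetal liver cells over OP9 stroma in medium with SCF, Flt3 ligand and IL-7. The 2 wt proB libraries came from Fraction BC cells sorted from bone marrow of Ebf1+/+ Pax5+/+ Rag2+/+ mice. B-ALL and dHet proB thus share the loss of 1 allele each of Ebf1 and Pax5, the transcription factors that set up the B cell program. They differ in Rag2, tissue, culture and leukemia. B-ALL and wt proB differ in Ebf1, Pax5, tissue and leukemia. The dHet proB and wt proB cells differ in Ebf1, Pax5, Rag2, culture and tissue, fetal liver against bone marrow. Within each comparison below, these differences cannot be told apart. Whether the dHet proB and the wt proB libraries are each from other animals or cultures is not in the labels, and p-values there measure only the spread between libraries, which may be technical.

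The mitochondrial ribosome makes the few membrane proteins of the respiratory chain and the ATP synthase that mitochondrial DNA encodes. It descends from a bacterial ribosome, has lost much of its ribosomal RNA and has gained many proteins of its own. All its proteins are encoded in the nucleus, made in the cytosol and imported, while its RNAs come from mitochondrial DNA. By the current names of the subunits, 50 members belong to the large subunit, which joins amino acids, and 26 to the small subunit, which decodes the mRNA. Mrps18a and Mrps30 are counted with the large subunit, where structures place them, and Mrps36 with neither, since it is now known as a component of the alpha-ketoglutarate dehydrogenase complex. Of the 76 others, 47 are counted with families shared with bacteria and 29 as specific to mitochondria. In this split Mrps18a is counted with the bacterial families, but the related Mrps18b as mitochondria-specific. These related genes are thus not treated alike, which affects the counts by origin below. RNAs encoded by mitochondrial DNA were not analysed here.

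The values are FPKM, a level per transcript length and per mapped fragments, as deposited. All 77 members were above 0 in each library, the lowest value being 5.81 FPKM, and all 77 passed the filter of FPKM of 1 or more in at least 2 of 8 units. A unit is a B-ALL mouse, its 2 libraries averaged on the log2 scale, or a library of the other groups. Sequencing depth is unknown, since the tables give no counts. The summed level of 8 proB marker genes was 6123 to 8826 FPKM in B-ALL, 8128 to 10444 in dHet proB and 7067 to 7503 in wt proB. Single markers were less even than their sum. In the limma comparisons below, 2 of the 8 were lower in B-ALL than in dHet proB, 1 was lower than in wt proB, and 0 were higher. The lowest log2 difference of a marker between dHet proB and wt proB was -3.41, with 0 past the test, and 4 of 8 differed among the B-ALL mice. The summed level of 10 neutrophil and myeloid markers was 28.6 to 262 FPKM in B-ALL, 13.8 to 51.7 in dHet proB and 539 to 561 in wt proB. That of 5 plasmacytoid dendritic cell markers was 1.34 to 6.94 FPKM in B-ALL, 2.86 to 24.7 in dHet proB and 219.7 to 351 in wt proB. Stromal markers summed to at most 2.74 FPKM in any library. In bulk RNA, a smaller share of cells with a transcript and less of it per cell cannot be told apart.

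Promoter sequences show which regulatory letters occur among the members. RefSeq promoters of build GRCm38.p6, from 250 bases before the start to 50 after it, were at hand for 68 of the 77 members, and letters were searched on both strands, over every start listed for a gene. The searched letters were GCGCNTGCG for NRF1 and CCGGAAG for ETS factors such as GABPA, both of which are known to bind promoters of nuclear genes for mitochondria, AANATGGCG for YY1 and CACGTG for the E-box that MYC and other factors can bind. None of these motifs contains another. The following 4 promoters belong to members with higher RNA in B-ALL and between them show each motif in capitals: NRF1 in Mrpl12 (chr11:120484387-120484686, plus strand), NRF1 in 2 places after ETS in Mrpl17 (chr7:105811038-105811337, minus strand), ETS and then YY1 in Mrps18a (chr17:46110754-46111053, plus strand), and the E-box and then YY1 in Mrpl36 (chr13:73330759-73331058, plus strand).
Mrpl12: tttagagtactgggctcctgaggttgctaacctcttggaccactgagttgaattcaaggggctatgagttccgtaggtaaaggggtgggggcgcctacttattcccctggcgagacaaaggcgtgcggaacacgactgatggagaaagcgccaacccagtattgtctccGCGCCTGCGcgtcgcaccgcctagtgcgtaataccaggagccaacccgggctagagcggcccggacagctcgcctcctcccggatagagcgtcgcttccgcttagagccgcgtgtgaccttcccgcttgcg
Mrpl17: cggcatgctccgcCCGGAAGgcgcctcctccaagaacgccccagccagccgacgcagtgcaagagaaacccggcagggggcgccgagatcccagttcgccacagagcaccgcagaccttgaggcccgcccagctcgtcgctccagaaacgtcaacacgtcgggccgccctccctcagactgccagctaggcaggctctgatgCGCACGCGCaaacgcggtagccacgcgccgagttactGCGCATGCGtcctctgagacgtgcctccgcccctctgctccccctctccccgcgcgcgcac
Mrps18a: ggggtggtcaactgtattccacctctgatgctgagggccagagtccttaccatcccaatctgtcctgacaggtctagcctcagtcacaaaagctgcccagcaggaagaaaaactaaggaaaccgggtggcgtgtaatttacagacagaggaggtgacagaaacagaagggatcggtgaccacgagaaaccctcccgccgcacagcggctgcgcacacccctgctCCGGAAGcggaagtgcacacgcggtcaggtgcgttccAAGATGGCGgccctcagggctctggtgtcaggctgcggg
Mrpl36: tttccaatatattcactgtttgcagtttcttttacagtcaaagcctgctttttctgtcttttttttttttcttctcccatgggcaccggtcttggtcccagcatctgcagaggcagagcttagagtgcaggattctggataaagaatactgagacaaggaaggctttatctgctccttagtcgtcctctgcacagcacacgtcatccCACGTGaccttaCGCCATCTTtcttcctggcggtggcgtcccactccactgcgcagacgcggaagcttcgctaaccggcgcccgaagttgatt
The NRF1 letters were in 26.5% of member promoters and in 7.12% of the promoters of all 27025 genes in the table. ETS letters were in 36.8% of member promoters and in 9.93% of all. YY1 letters were in 14.7% of member promoters and in 2.76% of all, while the E-box was in 7.35% of member promoters and in 8.09% of all. Among the 22 members with a promoter that passed the test in either B-ALL comparison, given below, the shares were 18.2% for NRF1, 31.8% for ETS, 18.2% for YY1 and 13.6% for the E-box. Among the 46 other members they were 30.4%, 39.1%, 13.0% and 4.35% in the same order. All members were expressed here, whereas the 27025 genes were not limited to the 11110 genes tested for expression. No share over expressed genes was computed, so these differences from all genes may not be particular to the members. A match is a description of letters in this window and not a site of binding.

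The members were expressed at widely different levels that kept nearly the same order in each group. The mean FPKM over the 3 groups ran from 8.61 for Mrps25, a small subunit protein whose exon bases overlap Nr2c2 on the other strand for 69.8%, to 299.8 for Mrpl42, a protein that mitochondria have added, which is a ratio of 34.8. Mrpl18, of a family that in bacteria binds 5S rRNA, followed Mrpl42 with 271 FPKM, and Mrpl20, of a family needed early in assembly in bacteria, with 236 FPKM. At the low end, Mrpl1, of the stalk where spent tRNAs leave, averaged 13.7 FPKM and Mrpl17, which lies near the exit of the protein tunnel, 15.7 FPKM. The median member averaged 65.5 FPKM, 25 members averaged 100 FPKM or more, and 76 averaged 10 or more. The Spearman correlation of group means across the 77 members was 0.94 between B-ALL and dHet proB, 0.96 between B-ALL and wt proB and 0.97 between dHet proB and wt proB; the members are not replicates, and B-ALL, dHet proB and wt proB each enter 2 of these pairs. In B-ALL, Mrpl42 averaged 395 ± 63.9 FPKM, Mrpl20 316 ± 52.2 and Mrpl18 294 ± 49.8 (SD, n = 3 mice). These values come from the same mice. Mrpl42 was above Mrpl18 in each mouse, while Mrpl20 was above Mrpl42 in mouse 713, with 345.5 and 337.3 FPKM.

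The summed level of the 77 members was higher in B-ALL. It was 8241 and 8315 FPKM in the libraries of mouse 686, 7482 and 7285 in those of mouse 713, with 8369 and 6900.0 in those of mouse 760. It was 5658, 6854 and 5277 FPKM in dHet proB libraries 1, 2 and 3, and 5832 and 5679 in wt proB libraries 1 and 2. Each B-ALL library was thus above each library of the other groups, library 2 of mouse 760 by the smallest margin over dHet proB library 2. The sum averaged 7765 ± 462 FPKM in B-ALL (SD, n = 3 mice), 5930 ± 823 in dHet proB (n = 3) and 5756 ± 108 in wt proB (n = 2). FPKM summed over all genes was 578240 to 638953 in B-ALL libraries, 505261 to 584543 in dHet proB and 520519 to 553798 in wt proB. As a share of that total the members took 1.26% ± 0.10 in B-ALL, 1.08% ± 0.079 in dHet proB and 1.07% ± 0.027 in wt proB (SD). By library, this share ran from 1.14% to 1.36% in B-ALL and from 1.03% to 1.17% in dHet proB, which overlap, and from 1.05% to 1.09% in wt proB. The summed level of 10 genes of dividing cells was 1542 to 2001 FPKM in B-ALL, against 838 to 3353 in dHet proB and 2113 to 2274 in wt proB. Among the dHet proB libraries, library 2 was highest and library 3 lowest for both sums. The part of cell division in the members' levels was not tested.

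**Figure D1:**
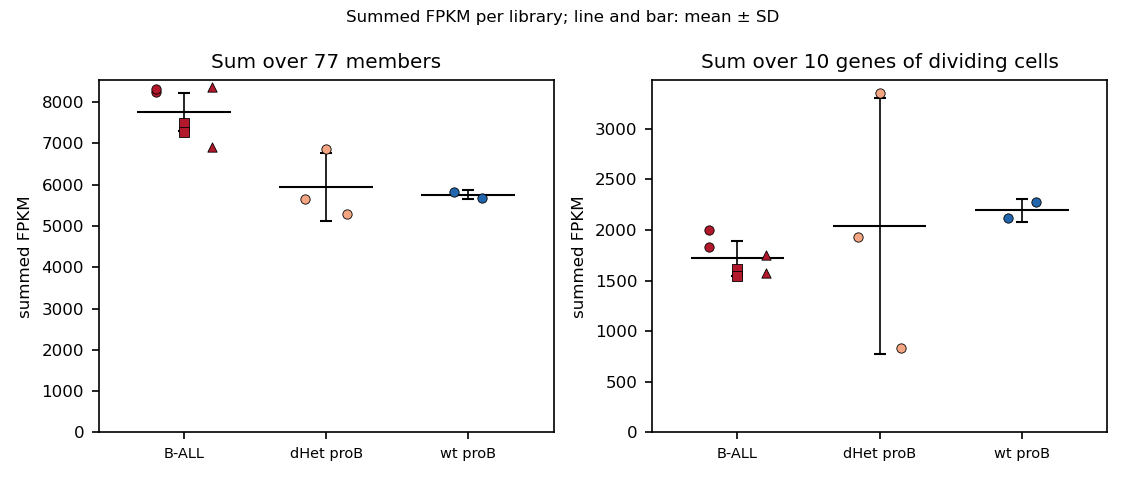
Summed FPKM per library of the 77 mitochondrial ribosomal protein genes (left) and of 10 genes of dividing cells (right) in B-ALL (circle, square and triangle for mice 686, 713 and 760), dHet proB and wt proB; the line and bar are the mean ± SD over mice or libraries. Member sums lie between 6900.0 and 8369 in B-ALL and between 5277 and 6854 in the other groups, while the sums for dividing cells overlap.

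Against dHet proB cells, 24 of the 77 members (31.2%) were higher in B-ALL and 0 were lower at an adjusted p under 0.05 in limma, over 11110 genes tested. The background in that comparison was 14.5% of all genes tested higher and 11% lower. The median log2 difference over the members was 0.34, beside 0.035 over all genes tested, and 66 of the 77 differences were above 0. Without adjustment, 36 members were higher and 1, Mrpl49, was lower at p under 0.05. By subunit, 13 of 50 large subunit members rose (median 0.34) and 11 of 26 small subunit members rose (median 0.52). By origin, 20 of 47 members counted with bacterial families, Mrps18a among them, were higher (42.6%, median 0.49). Of the mitochondria-specific members 4 of 29 were higher (13.8%, median 0.32), a share near that of all genes tested. Whether these shares differ from each other was not tested. Markers of other cells were higher in B-ALL in the same comparison, 6 of 7 for T and NK cells and 2 of 3 tested for red cells. T and NK markers summed to 8.36 to 24.9 FPKM in B-ALL, 0.195 to 1.82 in dHet proB, where Cd3e, Cd4, Cd8a and Ncr1 were listed at 0, and 13.7 to 17.3 in wt proB. Red cell markers summed to 7.22 to 500.3 FPKM in B-ALL, 0.0701 to 0.115 in dHet proB, where Hba-a1 and Hbb-b1 were listed at 0, and 8.85 to 31.1 in wt proB. No red cell marker thus reached FPKM 1 in dHet proB, so those tested met the filter only through the other groups. With dHet proB near 0 for both marker sets, these counts left little room for a fall in B-ALL. Of the myeloid markers, 1 of 10 was higher. The part of these cells in the members' differences was not tested. Leaving out mouse 686 or dHet proB library 1 gave 10 members higher, and leaving out dHet proB library 2 gave 30. After rescaling to TPM, 15 members were higher and 1, Mrpl49, was lower.

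In the small subunit, the largest difference was that of Mrps6, whose bacterial relative pairs with protein S18 on the platform. Mrps6 had 41.2 and 34.7 FPKM in the libraries of mouse 686, 26.1 and 29.6 in those of mouse 713, with 43.7 and 38.4 in those of mouse 760, against 10.3, 11.6 and 17.3 in dHet proB libraries and 21.4 and 14.9 in wt proB. The lowest B-ALL library was above the highest of both other groups. The log2 difference from dHet proB was 1.39 ± 0.25 (SE, adjusted p = 0.0076), and that from wt proB was 0.94 ± 0.28 with an adjusted p of 0.0510, which did not pass. Mrps28, another small subunit protein, had mouse means of 238, 194.5 and 218 FPKM in B-ALL (mice 686, 713 and 760), against 66.5, 131.7 and 72.3 in dHet proB libraries and 153 and 119.6 in wt proB. Its values did not overlap between B-ALL and either group, and dHet proB libraries 1 and 3 were the lowest. The log2 difference was 1.32 ± 0.26 from dHet proB (adjusted p = 0.0109) and 0.67 ± 0.29 from wt proB (adjusted p = 0.145). Mrps27, a protein of the pentatricopeptide repeat type known in human cells to bind RNA, rose by 0.92 ± 0.18 against dHet proB (adjusted p = 0.0111) and by 0.74 ± 0.21 against wt proB (adjusted p = 0.0427). Its mouse means were 68.3, 52.1 and 78.2 FPKM in B-ALL, while the libraries ranged from 30.2 to 39.8 in dHet proB and from 35.9 to 41.3 in wt proB. In the annotation used for overlaps, GENCODE M21, 24.2% of the exon bases of Mrps27 overlap 6430562O15Rik on the other strand, and 19.9% of those of Mrps6 overlap Gm49711 on the same strand.

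Mrps34, known in human patients from variants that cause Leigh syndrome, had the smallest adjusted p of the members in both B-ALL comparisons. It had 202 and 208 FPKM in mouse 686, 166.5 and 161 in mouse 713, with 229 and 179.9 in mouse 760, against 87.7, 92.3 and 100.5 in dHet proB libraries and 101.4 and 101.7 in wt proB. The 5 proB libraries lay within a narrow band below all B-ALL libraries. The log2 difference was 1.01 ± 0.14 from dHet proB (adjusted p = 0.0030) and 0.89 ± 0.15 from wt proB (adjusted p = 0.0076). In the same annotation, 63.4% of its exon bases overlap Mapk8ip3 on the other strand and 34.2% of its 50-base words occur in Nme3, and whether the counting used strand is not given in the sources used here. Both neighbours were at much lower levels: Mapk8ip3 ranged from 3.81 to 5.52 FPKM in B-ALL, from 3.23 to 5.94 in dHet proB and from 6.48 to 7.37 in wt proB. Nme3 ranged from 9.47 to 16.9 FPKM in B-ALL, from 8.67 to 10.3 in dHet proB and from 22.0 to 23.1 in wt proB. These levels do not show how reads were shared between the genes. The part of overlap in the values of Mrps34 was not tested.

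In the large subunit, the stalk that recruits translation factors is built on Mrpl10 and Mrpl11 and carries copies of Mrpl12, which is also reported to bind the mitochondrial RNA polymerase. Mrpl12 had 259 and 263 FPKM in mouse 686, 209 and 219 in mouse 713, with 264 and 219 in mouse 760, against 83.3, 126 and 112.5 in dHet proB libraries and 129 and 101.5 in wt proB. Each B-ALL library was well above both other groups, which overlapped each other. Mrpl12 rose by 1.16 ± 0.19 against dHet proB (adjusted p = 0.0060) and by 1.05 ± 0.21 against wt proB (adjusted p = 0.0142). Mrpl11 had mouse means of 29.3, 26.9 and 30.9 FPKM in B-ALL, against 14.7, 21.5 and 14.9 in dHet proB libraries and 16.8 and 16.2 in wt proB, and rose by 0.75 ± 0.17 (adjusted p = 0.0183) and 0.78 ± 0.19 (adjusted p = 0.0299) against them. Mrpl10, in contrast to both, ranged from 44.2 to 48.2 FPKM in B-ALL, from 38.8 to 44.7 in dHet proB and from 40.9 to 45.9 in wt proB, and these ranges overlap. Its log2 difference was 0.16 ± 0.12 from dHet proB (adjusted p = 0.357) and 0.10 ± 0.14 from wt proB (adjusted p = 0.648), and its sign turned to -0.01 and -0.10 when values were rescaled to TPM.

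Further large subunit members that rose against both groups were Mrpl17, Mrpl36, Mrpl2, Mrpl19, Mrpl20, Mrpl3 and Mrps18a, and in the small subunit Mrps27, Mrps34, Mrps10 and Mrps5; since both comparisons use the same B-ALL mice, they are not independent of each other. For Mrpl20, library 2 of mouse 760, with 214.8 FPKM, was below dHet proB library 2, with 227.0. Neither call of Mrpl20 was kept after rescaling to TPM or after quantile normalization. Mrpl2 and Mrpl3 belong to families that lie close to the site where peptide bonds form. Mrpl2 had mouse means of 155, 131 and 136 FPKM in B-ALL, while the libraries ranged from 68.7 to 94.5 in dHet proB and from 79.2 to 83.3 in wt proB. The log2 difference of Mrpl2 was 0.82 ± 0.15 from dHet proB (adjusted p = 0.0092) and 0.78 ± 0.17 from wt proB (adjusted p = 0.0196). Mrpl36, a very small protein, had mouse means of 237, 165 and 220.2 FPKM in B-ALL, against 97.5, 109 and 129.8 in dHet proB libraries and 104 and 123 in wt proB, with no overlap. It rose by 0.87 ± 0.19 against dHet proB (adjusted p = 0.0139) and by 0.84 ± 0.21 against wt proB (adjusted p = 0.0282). Mrpl17 had mouse means of 26.6, 19.9 and 23.6 FPKM in B-ALL, against 8.21, 12.9 and 12.3 in dHet proB libraries and 12.1 and 13.1 in wt proB. It rose by 1.01 ± 0.20 (adjusted p = 0.0110) against dHet proB and by 0.83 ± 0.22 (adjusted p = 0.0395) against wt proB. Of the exon bases of Mrpl19, 36.0% overlap Gcfc2 on the other strand.

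The Mrps18 genes are 3 related genes whose proteins sit in different places of the ribosome. Mrps18a, in the large subunit, had mouse means of 235, 262 and 199.6 FPKM in B-ALL, against 130.4, 160.5 and 145 in dHet proB libraries and 145 and 146 in wt proB. It rose by 0.67 ± 0.15 against dHet proB (adjusted p = 0.0177) and by 0.66 ± 0.17 against wt proB (adjusted p = 0.0331), with no overlap of libraries. Mrps18b, which takes a mitochondria-specific position in the small subunit, had mouse means of 57.6, 44.8 and 50.2 FPKM in B-ALL, against 16.5, 29.1 and 26.4 in dHet proB libraries and 30.2 and 26.1 in wt proB. Its difference was 1.08 ± 0.22 from dHet proB (adjusted p = 0.0119) and 0.83 ± 0.25 from wt proB (adjusted p = 0.0526), and its libraries did not overlap either group. Mrps18c, the counterpart of bacterial S18, ranged from 140.6 to 173.5 FPKM in B-ALL, from 122.5 to 217 in dHet proB and from 133 to 138 in wt proB. The B-ALL values of Mrps18c thus lay inside the range of dHet proB. Its difference was -0.02 ± 0.20 from dHet proB (95% interval -0.49 to 0.45) and 0.25 ± 0.23 from wt proB (95% interval -0.27 to 0.77). In the annotation, 30.5% of the exon bases of Mrps18b overlap Gm16279 on the other strand, and 23.2% of those of Mrps18c overlap Gm43511 on the same strand.

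Another 8 members rose against dHet proB and did not pass against wt proB. They were Mrpl38 (0.80 on the log2 scale), Mrpl55, Mrpl4 and Mrpl21 of the large subunit and Mrps24, Mrps2, Mrps17 and Mrps12 of the small subunit, Mrps12 belonging to the family that checks codon pairing in bacteria. Of the exon bases of Mrps24, 15.4% overlap Urgcp on the same strand. The smallest difference that passed was 0.49, for Mrpl21, and the highest adjusted p among the 24 was 0.0434. Mrpl38, a mitochondria-specific protein, ranged from 63.3 to 80.0 FPKM in B-ALL, from 33.9 to 47.7 in dHet proB and from 48.3 to 48.5 in wt proB. Its B-ALL libraries were above both groups, although its difference from wt proB did not pass. The standard errors of the 77 differences from dHet proB ran from 0.12 to 0.27, and the median half-width of their 95% intervals was 0.39. At 53 members no call was made, and this does not show that they were unchanged.

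**Figure D2:**
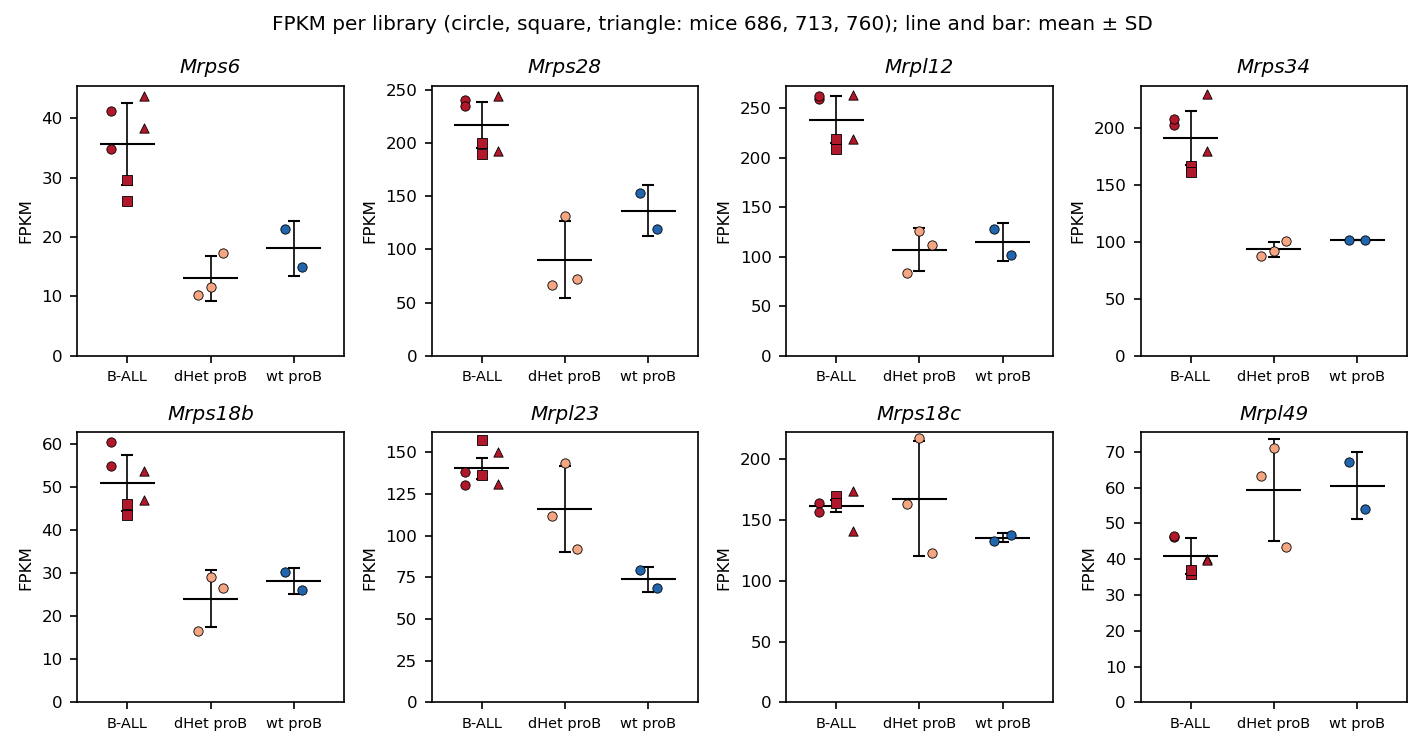
FPKM per library for 8 members in B-ALL (circle, square and triangle for mice 686, 713 and 760), dHet proB and wt proB; the line and bar are the mean ± SD over 3 mice, 3 libraries and 2 libraries. Mrps6, Mrps28, Mrpl12, Mrps34 and Mrps18b lie above both other groups in every B-ALL library, Mrpl23 above wt proB only, Mrps18c overlaps dHet proB, and Mrpl49 lies lower in B-ALL than in wt proB.

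Against wt proB cells, 16 of the 77 members (20.8%) were higher in B-ALL and 0 were lower, beside 8.15% of all genes tested higher and 10.0% lower. The median log2 difference was 0.40 over the members and -0.023 over all genes tested, and 72 of the 77 differences were above 0. At an unadjusted p under 0.05, 33 members were higher and 1, again Mrpl49, was lower. Of the large subunit 11 of 50 members rose (median 0.38) and of the small subunit 5 of 26 (median 0.42). Of the members counted with bacterial families, again with Mrps18a, 13 of 47 rose (27.7%, median 0.43). Of the mitochondria-specific members 3 of 29 rose (10.3%, median 0.24), a share near that of all genes tested. In this comparison the myeloid and plasmacytoid dendritic cell markers above were lower in B-ALL for 7 of 10 and 5 of 5 genes, and of the T and NK markers 3 of 7 were higher and 2 lower; their part in the members' differences was not tested. No call against wt proB was kept when 1 of the 2 wt proB libraries was left out: 0 members then passed in limma, with 18 higher and 0 lower at an unadjusted p under 0.05. Calls over all genes also fell in number, with 123 higher without wt proB library 1 and 61 without library 2, against 905 with both. The members' median difference was then 0.41 and 0.35. Without mouse 686, 3 members were higher and without mouse 760, 8 were; 5 were higher after rescaling to TPM.

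Mrpl23, Mrpl44 and Mrps15 passed against wt proB and not against dHet proB. Mrpl23, a protein of the rim of the tunnel exit, had 130.1 and 138 FPKM in mouse 686, 157 and 136 in mouse 713, with 150.1 and 131 in mouse 760, against 112, 144 and 92.3 in dHet proB libraries and 79.2 and 68.4 in wt proB. B-ALL overlapped dHet proB library 2 but not wt proB, and all 3 dHet proB libraries were above both wt proB libraries. Its difference was 0.29 ± 0.18 from dHet proB (adjusted p = 0.250) and 0.92 ± 0.20 from wt proB (adjusted p = 0.0175). Mrpl44, a mitochondria-specific protein with a fold like that of RNase III, had a difference of 0.47 ± 0.19 from dHet proB (adjusted p = 0.109) and 0.85 ± 0.22 from wt proB (adjusted p = 0.0322). The libraries of Mrpl44 ranged from 49.5 to 90.1 FPKM in B-ALL, from 44.2 to 47.2 in dHet proB and from 34.6 to 35.0 in wt proB. Mrps15, whose family binds the RNA of the small subunit, rose by 0.63 ± 0.17 against wt proB (adjusted p = 0.0407), beside a difference of 0.48 ± 0.15 from dHet proB that did not pass. Whether the 2 differences of a gene differ from each other is the comparison of dHet proB with wt proB, given below.

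Mrpl49, a mitochondria-specific large subunit protein, had the lowest difference in both comparisons. Its libraries had 46.1 and 46.5 FPKM in mouse 686, 35.9 and 37.0 in mouse 713, with 40.0 and 39.7 in mouse 760, against 63.3, 71.0 and 43.4 in dHet proB libraries and 67.2 and 53.9 in wt proB. All B-ALL libraries were below wt proB and below dHet proB libraries 1 and 2, but mouse 686 was above dHet proB library 3. The log2 difference was -0.50 ± 0.21 from dHet proB (adjusted p = 0.109) and -0.56 ± 0.23 from wt proB (adjusted p = 0.130). Without dHet proB library 3, Mrpl49 fell by 0.71 on the log2 scale against dHet proB (adjusted p = 0.0271).

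**Figure D3:**
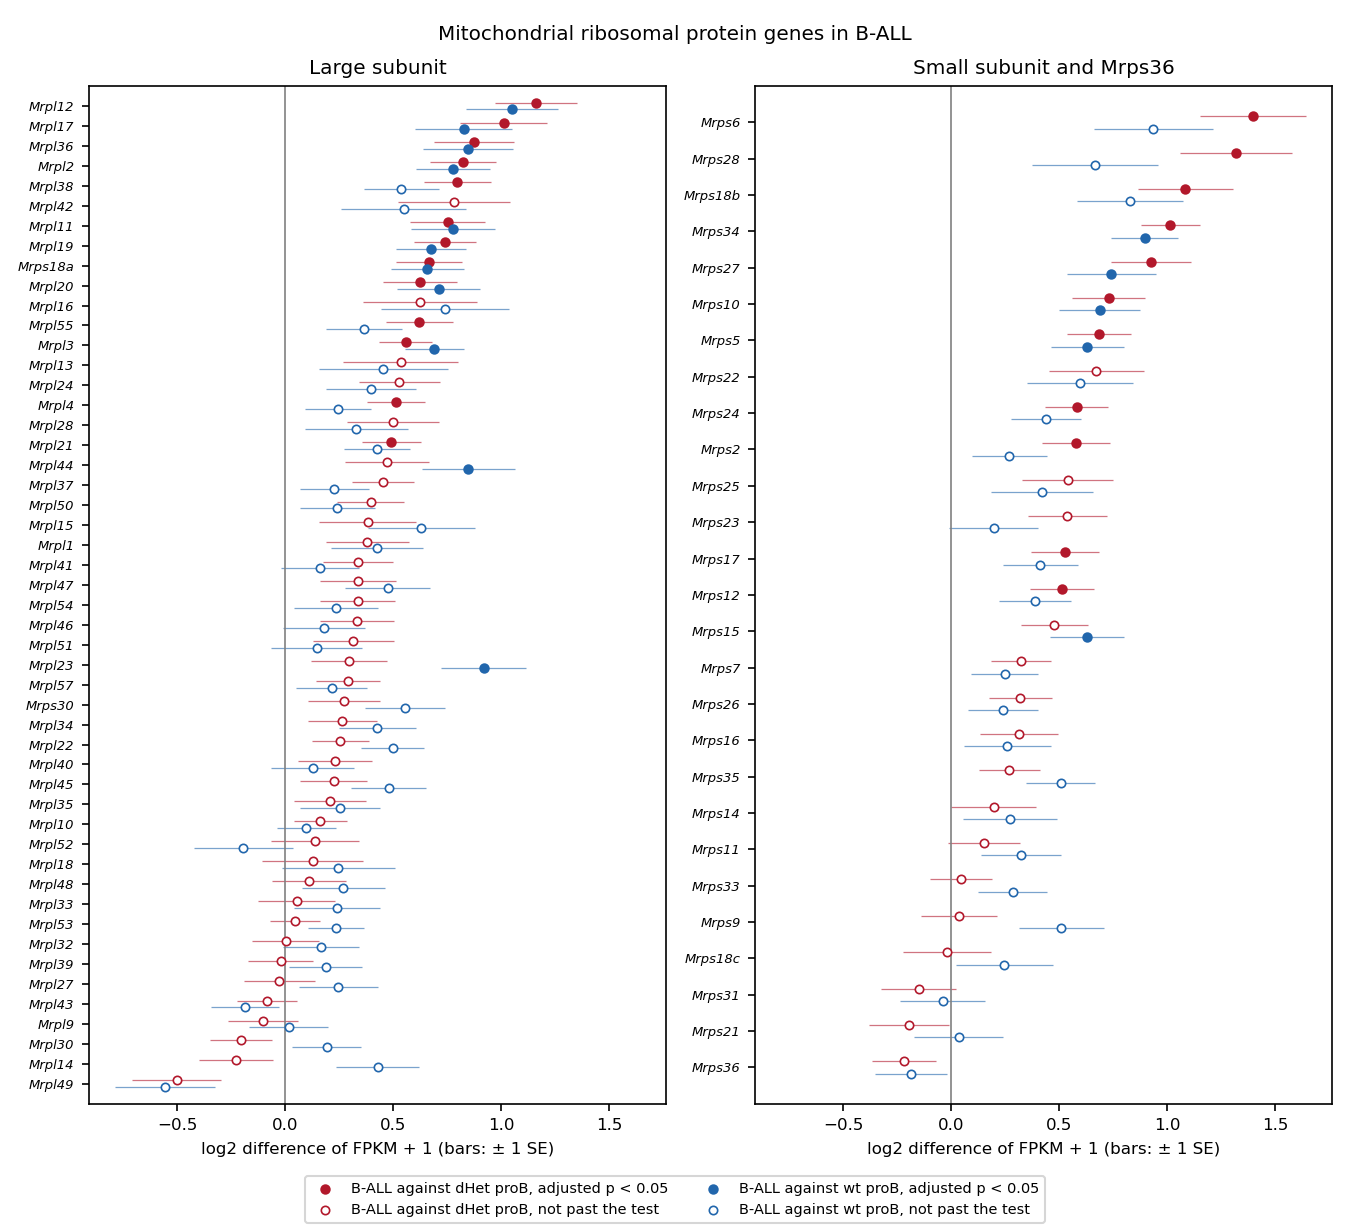
Log2 difference of FPKM + 1, with bars of ± 1 SE, for the large subunit members (left) and the small subunit members with Mrps36 (right), B-ALL against dHet proB in red and against wt proB in blue; filled points passed an adjusted p under 0.05. Of the 77 members, 66 lie above 0 against dHet proB and 72 against wt proB, with Mrps6 highest against dHet proB, Mrpl12 highest against wt proB and Mrpl49 lowest against both.

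Between dHet proB and wt proB, 0 members were higher and 0 lower in limma, beside 2.18% of all genes tested higher and 6.50% lower. At an unadjusted p under 0.05, 4 members were higher in dHet proB (Mrpl14, Mrpl23, Mrpl30 and Mrps9) and 0 were lower. The median log2 difference was -0.05 over the members and -0.037 over all genes tested. The 95% interval of 73 of the 77 members lay within 1 unit of log2 on either side of 0, so that a doubling or halving lies outside it for these genes, while smaller differences could not be resolved with 3 and 2 libraries. Mrpl23 had the second lowest p of the members, with a difference of 0.63 ± 0.20 (adjusted p = 0.0997), and Mrpl14 the lowest, with 133.9, 143 and 102 FPKM in dHet proB against 78.9 and 79.1 in wt proB (adjusted p = 0.0805). Mrps28 had the lowest difference, -0.65 ± 0.29, and fell by 0.96 in dHet proB (adjusted p = 0.0227) when library 2, its highest, was left out. Without dHet proB library 3, Mrpl14 and Mrpl23 were higher than in wt proB.

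The 73 cytosolic ribosomal proteins, the matching proteins of the ribosome outside mitochondria, gave other values. In B-ALL, 9 of 73 (12.3%) were higher than in dHet proB (median 0.25), a share below the 14.5% of all genes tested. Against wt proB, 33 of 73 (45.2%) were higher in B-ALL (median 0.80), beside 8.15% of all genes, with 0 lower in each comparison. In dHet proB, 3 of 73 (4.11%) were higher than in wt proB (median 0.47), beside 2.18% of all genes, and 0 were lower, where the mitochondrial members had a median of -0.05. As a share of summed FPKM the cytosolic proteins took 8.26% ± 0.49 in B-ALL, 8.11% ± 0.73 in dHet proB and 5.68% ± 1.5 in wt proB, so that dHet proB was near B-ALL for this group and near wt proB for the mitochondrial members. The wt proB libraries stood apart from each other, with 6.75% and 4.61%. The difference between the 2 groups of genes was not tested.

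**Figure D4:**
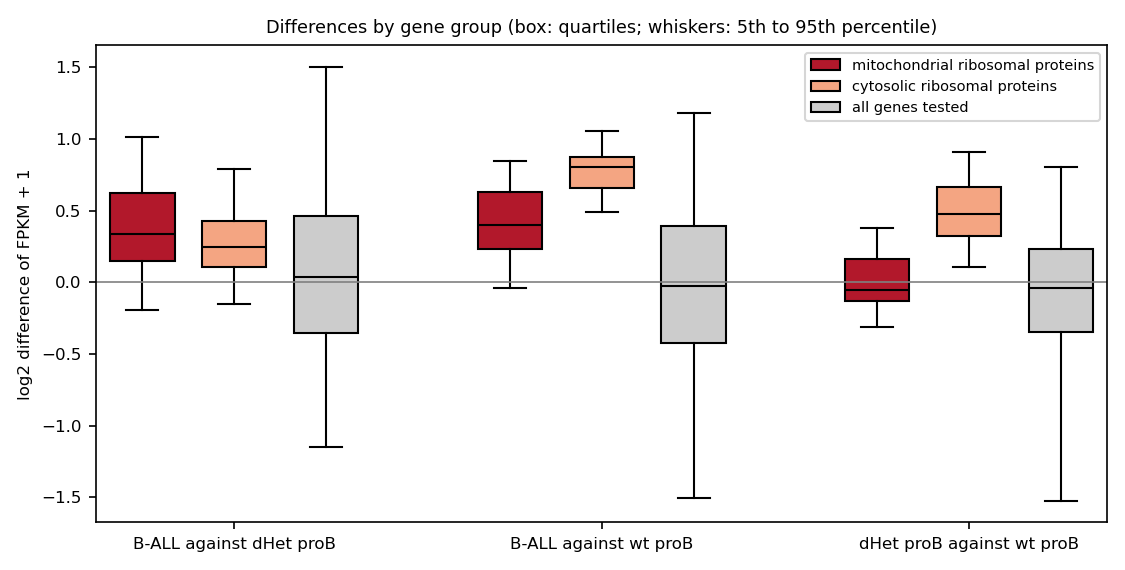
Log2 differences of FPKM + 1 for the 77 mitochondrial ribosomal proteins, 73 cytosolic ribosomal proteins and all 11110 genes tested, in 3 comparisons; boxes are quartiles with the median, and whiskers run from the 5th to the 95th percentile. The members' medians are 0.34, 0.40 and -0.05, and those of the cytosolic proteins 0.25, 0.80 and 0.47.

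Genes that work with the mitochondrial ribosome were read from lists of the pathway, and the shares higher in B-ALL are to be read beside the 14.5% of all genes tested against dHet proB and 8.15% against wt proB. Of 6 proteins of the mitochondrial ribosome without an Mrp symbol, 1 (16.7%) was higher in B-ALL than in dHet proB, a share near that of all genes, and 2 (33.3%) were higher than in wt proB. Gadd45gip1, a large subunit protein, had 97.5 to 146.5 FPKM in B-ALL, 61.6 to 76.1 in dHet proB and 70.1 to 79.1 in wt proB, and rose by 0.81 ± 0.16 (adjusted p = 0.0106) and 0.70 ± 0.18 (adjusted p = 0.0314) against them. Chchd1, of the small subunit, rose by 0.87 ± 0.19 against wt proB (adjusted p = 0.0189). Of 14 translation factors, 4 (28.6%) were higher than in dHet proB and 1 (7.14%) than in wt proB, the second share being near that of all genes. The translation factors that passed included Gfm1, the elongation factor that moves the ribosome along, which rose by 0.73 ± 0.17 against dHet proB (adjusted p = 0.0198) and 0.76 ± 0.19 against wt proB (adjusted p = 0.0302). Tufm, the factor that delivers tRNAs, rose by 0.81 ± 0.20 (adjusted p = 0.0236) against dHet proB and differed by 0.46 ± 0.23 from wt proB (adjusted p = 0.188).

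Of 30 genes of ribosome assembly and rRNA maturation, 9 (30.0%) were higher in B-ALL than in dHet proB and 8 (26.7%) were higher than in wt proB, with medians of 0.22 and 0.15 and none lower. Clpp, a matrix protease on which ribosome assembly depends in mice, had 72.4 to 103 FPKM in B-ALL, 34.1 to 42.8 in dHet proB and 44.2 to 53.6 in wt proB. It rose by 1.08 ± 0.16 (adjusted p = 0.0041) and 0.79 ± 0.18 (adjusted p = 0.0214) against them. Noa1, a GTPase needed for small subunit assembly, rose by 0.83 ± 0.19 and 0.90 ± 0.21 and Rnmtl1, a methyltransferase of the large rRNA, by 1.01 ± 0.23 and 0.99 ± 0.26 against the same groups. Of 18 genes of mitochondrial transcription and RNA processing, 5 (27.8%) were higher than in dHet proB and 2 (11.1%) than in wt proB, the second share being near that of all genes. Lrpprc, which stabilises mitochondrial mRNAs, had 23.1 to 33.0 FPKM in B-ALL, 13.4 to 15.01 in dHet proB and 13.8 to 14.3 in wt proB, and rose by 0.94 ± 0.15 (adjusted p = 0.0057) and 0.94 ± 0.17 (adjusted p = 0.0090). Elac2, which trims mitochondrial tRNAs, rose by 0.95 ± 0.21 and 0.86 ± 0.24.

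Of 22 genes of protein import, which brings the members to their place, 9 (40.9%) were higher and 1 lower than in dHet proB, and 5 (22.7%) were higher and 1 lower than in wt proB. Hspa9, the motor chaperone of the matrix, had 301.8 and 266 FPKM in mouse 686, 172 and 166 in mouse 713, with 219 and 215 in mouse 760, against 44.5, 89.9 and 81.4 in dHet proB libraries and 76.4 and 65.8 in wt proB. It rose by 1.65 ± 0.29 (adjusted p = 0.0077) and 1.61 ± 0.33 (adjusted p = 0.0143) against them. Tomm5, of the outer membrane gate, rose by 1.38 ± 0.23 and 1.17 ± 0.25. Timm17b, a form of a channel protein of the inner membrane, fell, with 29.1 to 46.6 FPKM in B-ALL, 56.2 to 74.5 in dHet proB and 57.3 to 58.7 in wt proB, and differences of -0.90 ± 0.19 (adjusted p = 0.0125) and -0.77 ± 0.21 (adjusted p = 0.0390).

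Of 8 tested regulators of nuclear genes for mitochondria, 2 (25%) were higher and 1 lower in B-ALL than in dHet proB, and 0 passed against wt proB in limma, where 1, Pprc1, was higher at an unadjusted p under 0.05. Pprc1 and Ppargc1b, coactivators of the PGC-1 family, rose by 1.92 ± 0.53 (adjusted p = 0.0337) and 1.33 ± 0.41 (adjusted p = 0.0472) against dHet proB. Yy1 fell by 0.70 against dHet proB (SE 0.19, adjusted p = 0.0297), but its B-ALL values split by library number, with 6.00, 6.78 and 9.41 FPKM in library 1 of mice 686, 713 and 760 and 16.5, 21.1 and 15.5 in library 2. With only library 2 of each mouse its difference was -0.12 (adjusted p = 0.692). Nrf1 differed by -0.17 ± 0.13 and Gabpa by -0.12 ± 0.14 from dHet proB, and neither passed in either comparison. Myc, which the E-box letters above concern, had 445 and 417 FPKM in mouse 686, 209 and 203 in mouse 713, with 367 and 409.8 in mouse 760, against 9.39, 42.3 and 290.1 in dHet proB libraries and 82.6 and 68.4 in wt proB. dHet proB library 3 was inside the B-ALL range, and Myc did not pass (adjusted p = 0.0887 and 0.229 in the same order). The same dHet proB library 3 had the lowest summed level of the members. As a share of summed FPKM, the members were lowest in dHet proB library 1, with 1.03% beside 1.04% in library 3. The part of Myc in the members' levels was not tested. Between dHet proB and wt proB, 0 of the 98 tested genes of these 6 lists passed in limma, with 2 higher and 3 lower at an unadjusted p under 0.05, and the medians of the lists ran from -0.07 to 0.06.

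Among the B-ALL mice, 3 of the 77 members (3.90%) differed in a limma F test, beside 22.3% of 11293 genes tested. The test set the mice against the spread between libraries, taken over the mice, dHet proB and wt proB together. The proB libraries may be from other animals or cultures, so this spread is not only that between libraries of a mouse. Mrpl44 had 90.1 and 83.2 FPKM in mouse 760, against 56.5 and 57.1 in mouse 686 and 54.1 and 49.5 in mouse 713 (adjusted p = 0.0023). Mrpl15, of a family at the core of the large subunit, had 28.2 and 28.5 FPKM in mouse 713, against 47.4 and 46.7 in mouse 686, with 48.0 and 43.5 in mouse 760 (adjusted p = 0.0174). Mouse 713 was thus the low animal for Mrpl15, within the range of dHet proB, where values ran from 27.2 to 36.1 FPKM. Mrps23, of the small subunit, had 61.2 and 64.1 FPKM in mouse 713, against 48.4 and 48.7 in mouse 686, with 42.8 and 38.9 in mouse 760 (adjusted p = 0.0300). Mrps35 (adjusted p = 0.0617) and Mrpl36 (adjusted p = 0.0924) came next and did not pass. Mrpl15 and Mrps23 were no longer past the threshold without either library of mouse 713 or without library 1 of mouse 760, and Mrps23 also without the other libraries in turn, with an adjusted p of up to 0.197.

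**Figure D5:**
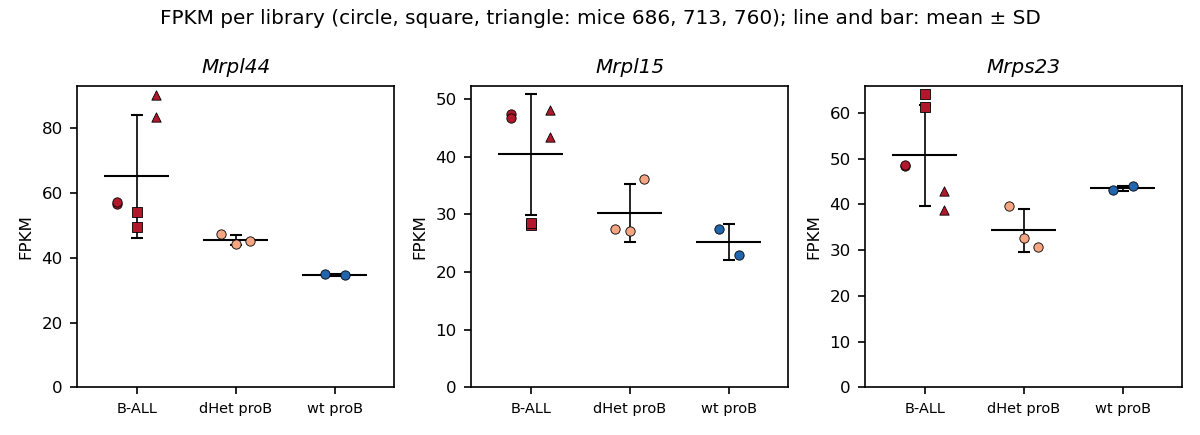
FPKM per library of the 3 members that differed among the B-ALL mice (circle, square and triangle for mice 686, 713 and 760), beside dHet proB and wt proB; the line and bar are the mean ± SD. Mouse 760 is high for Mrpl44, and mouse 713 is low for Mrpl15 and high for Mrps23.

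Over all members, mouse 713 had the lowest mean of the 3 mice for 53 of 77 and mouse 686 the highest for 43. The libraries of a mouse were close for mice 686 and 713, with median log2 differences over the members of -0.008 and 0.022 between library 1 and library 2. In mouse 760, 71 of 77 members were higher in library 1, by a median of 0.22 beside 0.014 over all genes tested, and none differed by 2-fold or more. Red cell markers summed to 397 and 500.3 FPKM in mouse 713, against 7.22 to 126 in the other mice, and myeloid markers to 262 and 260.0 in mouse 686, against 28.6 to 129.7 in the other mice. Their part in the differences between mice was not tested.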

How the data were processed

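RNA was measured in 11 mouse libraries. The submitters' processing notes name Cuffnorm 2.2.1, Cufflinks 2.2.1, Cuffdiff, STAR 2.5.3a and bcl2fastq (0.3.1 and 2.20.0.422), with build mm9. The authors deposited FPKM per gene symbol and library. Their scaling, annotation and any use of strand are not given, and without counts the depth, and so the precision of a single value, is unknown.

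Values were transformed to log2(FPKM + 1), a scale that understates changes of low genes. In R 4.3.3, limma 3.58.1 with statmod 1.5.0 fitted 8 units (3 B-ALL mice, 3 dHet proB and 2 wt proB libraries) under 1 spread for the 3 groups and a trend with the mean. The 11110 genes that reached FPKM 1 in 2 or more units were tested, two-sided, with Benjamini-Hochberg adjustment over all of them at 0.05. The mice were compared by a limma F test over 11 libraries and 11293 genes, with the spread taken within the mice, dHet proB and wt proB. The test was first run on simulated data in which all libraries varied independently. That simulation held no difference between mice, so it could not check error rates where libraries share a mouse. Tables and figures were made with Python 3.11.15, pandas 2.3.3 and matplotlib 3.10.9.

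The members and lists were chosen with earlier results of these data known. Members were named by rule: the 8 largest rises and falls past the test in each comparison, up to 2 genes per direction of each list, the 5 smallest p among mice, the 3 highest and 3 lowest levels, the Mrps18 genes and the stalk. Pdf, Rexo2 and Timm8a1, which the rule for lists gave as higher than in dHet proB, are not described above. Mrpl38, Mrpl49, Mrpl3, Mrps15, Mrpl14 and Myc were added after their values were seen. Nrf1 and Gabpa, which did not pass, were also named outside the rule. Same-numbered libraries of the mice deviated together (r = 0.635, 0.134 and 0.204 across genes), so the numbers appear to pair the libraries in the comparison of mice. The F test reported above did not use this pairing. With the number as a block, the limma F test called 4 members, which added Mrpl24 (adjusted p = 0.0263). Sequence tables of GRCm38.p6 (RefSeq) and GENCODE M21 belong to another build than mm9 and were used for promoters, overlaps and shared words of 50 bases. In these, 9 members shared over 20% of their exon bases with another gene and 11 shared over 10% of their words. The sample taken as dHet proB library 3 by its title has a source name that gives another number. Alternatives were other pseudocounts, filters, scalings, designs and left-out libraries.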

Additional observations from a re-analysis of the deposited data

How the results depend on the processing

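The direction of all 24 members called against dHet proB and all 16 called against wt proB was the same in each of 19 alternatives. Several of these cannot change a difference, such as other filters, no trend or leaving out a library of the group outside the comparison. The sign was fixed in advance there, and the members were picked by their calls in the same data. Against dHet proB, 9 of the 24 passed in all 19: Mrpl12, Mrpl17, Mrpl19, Mrpl2, Mrpl38, Mrps18b, Mrps28, Mrps34 and Mrps6. Against wt proB none did, and Mrpl23, Mrpl3 and Mrps34 were lost only without a wt proB library. Members higher than in dHet proB numbered 24, 15 in TPM, 15 with the replicate block and 10 to 30 with 1 mouse or library left out; members lower numbered 0, 1 in TPM, 1 with the replicate block and 0 to 1 with 1 left out. Members higher than in wt proB numbered 16, 5 in TPM, 8 after quantile normalization and 0 to 19 with 1 left out; members lower numbered 0, 1 in TPM and 1 with the replicate block. TPM moved the median of all genes to -0.116 against dHet proB and -0.224 against wt proB, while the members' medians were 0.17 and 0.20. Between dHet proB and wt proB, 1 member (Mrpl23) was higher after quantile normalization, 0 to 2 were higher and 0 to 1 lower with 1 left out. Among the mice, 1 to 2 members passed with 1 library left out. Between groups the replicate number is only a shared number. The causes were not tested.

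Signs turned for differences near 0. Against dHet proB, Mrpl10 was -0.013 in TPM and Mrps18c was 0.050 with library 1 of each mouse and -0.225 to 0.185 with 1 left out. Against wt proB, Mrpl10 was -0.102 in TPM and -0.009 after quantile normalization. Between dHet proB and wt proB, with 1 left out, Mrpl12 ran from -0.279 to 0.061, Mrps18a from -0.081 to 0.067, Mrpl11 from -0.146 to 0.114 and Mrpl10 from -0.146 to 0.016. Leaving out 1 of 2 wt proB libraries assumes that the other varies like the other groups.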
